A study of Mus musculus with 16 samples.

Results

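Guanylate-binding proteins (GBPs) and immunity-related GTPases (IRGs) are large GTP-hydrolysing proteins that interferons induce in macrophages. The 10 genes described here are Gbp2, Gbp3, Gbp4, Gbp5, Gbp6, Gbp7, Gbp9, Igtp, Irgm1 and Iigp1. They were chosen by symbol from the 54532 gene identifiers of the count tables, with earlier results of these data known. All 10 had counts in every library and all 10 passed the filter on low counts in each comparison. Another 18 genes of the same families served as a list for comparison.

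The proteins act at membranes inside the cell. IRG effectors and GBPs collect on vacuoles that hold parasites or bacteria and help to break them open, GBPs also expose bacterial lipopolysaccharide to caspase-11, and regulatory IRGs sit on the cell's own organelles and keep the effectors inactive there. Interferon-gamma signals through its receptor and the kinases JAK1 and JAK2 to genes with GAS elements, and it also induces the transcription factor IRF1. Type I interferons act on genes with ISRE elements, and many GBP and IRG genes answer to both kinds of interferon.

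The data are 16 RNA sequencing libraries of macrophages that were grown from mouse bone marrow in 20 ng/mL of the growth factor M-CSF for 7 days. The cells then spent 24 h in plain medium or in 70% tumor-conditioned medium (TCM) from YUMM1.7 mouse melanoma cells. The groups are JMJD3 cKO TCM (n = 3), a conditional knockout of the histone demethylase JMJD3, JMJD3 WT TCM (n = 3), the wild type of that line, TRAP1 KO TCM (n = 4), a knockout of the mitochondrial chaperone TRAP1, WT TCM (n = 3), and WT naive (n = 3), wild-type cells without TCM. Every group but WT naive was exposed to TCM. The labels give no Cre driver, no floxed allele, no mouse strain, age or sex, and name no animal for any replicate, so the p-values reflect only how far these libraries varied, and that variation may be technical.

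Totals were 15361604 to 22426820 counts per library. Trap1 had 3 counts over the 4 TRAP1 KO TCM libraries together, against 67.7 ± 5.36 CPM (counts scaled to a common library size, mean ± SD) in WT TCM. Kdm6b, which encodes JMJD3, was at 25.5 ± 0.931 CPM in the libraries labelled JMJD3 cKO TCM and at 25.1 ± 1.7 CPM in JMJD3 WT TCM (log2 fold change 0.04, adjusted p = 0.749). Counts summed over all exons cannot show that some exons were deleted, so results of this comparison are tied to the label. The summed level of 8 macrophage markers was 12700 to 26900 CPM in all libraries, and that of 6 melanoma markers reached at most 0.481 CPM. Xist, transcribed from the inactive X chromosome, averaged 914 CPM in the libraries labelled JMJD3 cKO TCM and 844 CPM in JMJD3 WT TCM and had at most 1 count in each other group, where the Y-linked Ddx3y averaged 85.2 to 87.3 CPM and was at 0 in the JMJD3 line. The line of mice and the sex of the cells therefore cannot be told apart.

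The genes lie in clusters on GRCm38. Gbp5 (142493978 to 142522344), Gbp7 (142530342 to 142550149), Gbp3 (142560026 to 142573209) and Gbp2 (142620602 to 142638008) follow each other on the plus strand of chromosome 3. Gbp9 (105077630 to 105139539), Gbp4 (105115767 to 105139586) and Gbp6 (105270702 to 105293698) lie on the minus strand of chromosome 5. On chromosome 11, Irgm1 (48861968 to 48871683) is on the minus strand and Igtp (58199556 to 58207591) on the plus strand, and Iigp1 is on chromosome 18.

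RefSeq's promoter table held windows for 6 of the 10 genes, 7 windows in all because Gbp3 has 2 starts, and none for Gbp4, Gbp6, Gbp9 and Iigp1. The 250 bases before each start were searched on both strands for the GAS letters TTCNNNGAA and the ISRE letters, which are GAAA, any 2 bases and GAAA again. The ISRE letters were in 6 of the 7 windows, where 2.98% of 32851 promoters of the table hold them. The GAS letters were in 3 of the 7, those of Gbp5, Gbp7 and Igtp, where 7.02% of all promoters hold them. All 3 of these windows also held the ISRE letters, a pairing found in 0.332% of all promoters. Of the 9 windows of other family genes, 5 held the ISRE letters and 4 the GAS letters. Another 4, those of Gm5431, Ifi47, 9930111J21Rik1 and 9930111J21Rik2, held neither. A match of letters is a description of the sequence and not of a bound site.

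The 120 bases before the starts of Gbp7 and Igtp are shown because both genes hold both motifs close to the start, and Gbp7 is the gene of the 10 that rose with TCM. They are at chr3:142530216-142530335 and chr11:58199436-58199555, plus strand, GRCm38.p6, with matched letters in capitals.
Gbp7: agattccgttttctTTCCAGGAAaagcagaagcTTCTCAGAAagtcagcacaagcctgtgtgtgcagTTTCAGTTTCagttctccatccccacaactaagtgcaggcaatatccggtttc
Igtp: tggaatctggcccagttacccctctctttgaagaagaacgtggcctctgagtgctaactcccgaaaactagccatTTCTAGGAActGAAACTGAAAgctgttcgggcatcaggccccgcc

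In Igtp the GAS letters begin 45 bases before the start and the ISRE letters follow after a gap of 2 bases. The same arrangement, with the same gap, was in the windows of 3 other IRG genes, namely its neighbour Irgm2 and the pair Tgtp1 and Tgtp2. For Irgm2 the sequence after the RefSeq start was not found in an annotated transcript of the gene. These 29-base stretches are shown to compare them, in the direction of each gene, from chr11:58199507-58199535 (Igtp, plus strand), chr11:58214898-58214926 (Irgm2, plus strand), chr11:48992310-48992338 (Tgtp1, minus strand) and chr11:49064269-49064297 (Tgtp2, minus strand), with the matched letters in capitals.
Igtp: ccatTTCTAGGAActGAAACTGAAAgctg
Irgm2: ccatTTCCAGGAActGAAACTGAAAgctg
Tgtp1: ccatTTCCAGGAAtcGAAACTGAAAccta
Tgtp2: ccatTTCCAGGAAtcGAAACCGAAAccta

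The ISRE letters of the remaining genes are shown with their surroundings, 30 bases each, from chr3:142496759-142496788 (Gbp5, plus strand), chr3:142559989-142560018 (Gbp3, plus strand), chr3:142620594-142620623 (Gbp2, plus strand) and chr11:48871431-48871460 (Irgm1, minus strand). Capitals again mark the matched letters, and in Gbp3 and Irgm1 a pair of matches overlaps. By the gene annotation, all 250 bases of the Irgm1 window lie in an exon. So do 61 bases of the Gbp2 window, whose gene starts at 142620602, inside the printed stretch. The Gbp5 window holds 34 exonic bases and this Gbp3 window 18.
Gbp5: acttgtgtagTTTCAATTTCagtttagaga
Gbp3: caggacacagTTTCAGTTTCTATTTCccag
Gbp2: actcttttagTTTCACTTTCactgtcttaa
Irgm1: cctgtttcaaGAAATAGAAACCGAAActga

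**Figure D1:**
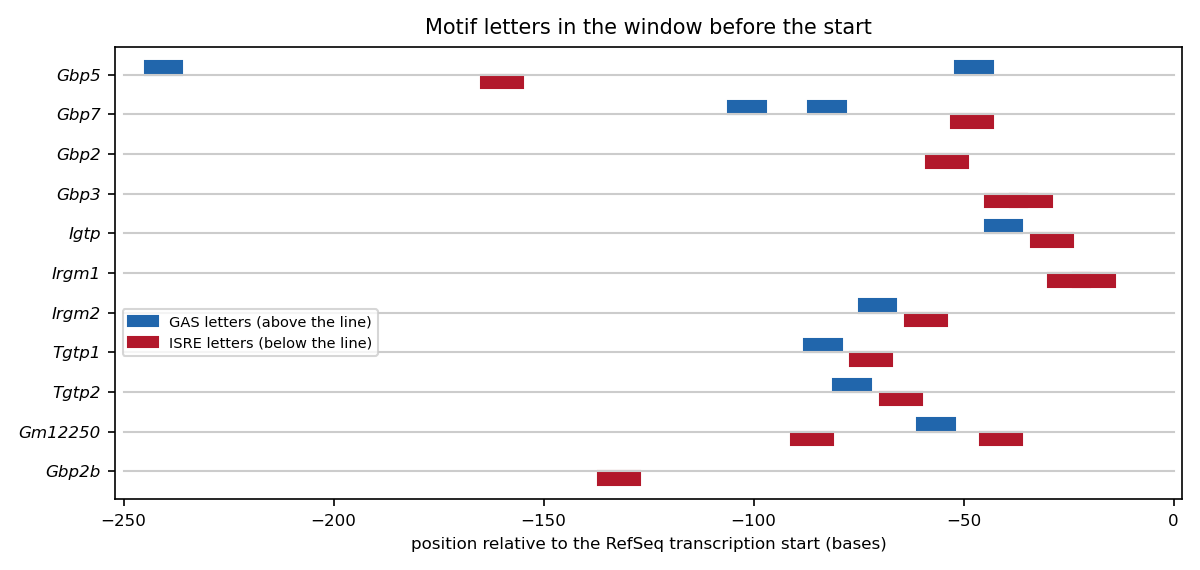
Positions of GAS letters (blue, above each line) and ISRE letters (red, below) in the 250 bases before the RefSeq start, for the 6 genes with a window and for 5 other family genes whose windows hold a match. The x axis is the position relative to the start in bases. In Igtp, Irgm2, Tgtp1 and Tgtp2 the motifs stand side by side. The 4 windows of other family genes that hold no match are not drawn.

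Levels below are CPM scaled over all 16 libraries, and levels of different genes are compared per kilobase of exon. Together the 10 genes held 1630 to 1770 CPM in the libraries labelled JMJD3 cKO TCM, 2980 to 3040 CPM in JMJD3 WT TCM, 486 to 500 CPM in TRAP1 KO TCM, 577 to 595 CPM in WT TCM and 719 to 734 CPM in WT naive. The ranges of these sums did not overlap between any groups. In WT TCM the regulatory Igtp (36.4 ± 1.07 CPM per kilobase) and Irgm1 (35.9 ± 0.797) had the highest levels per length, ahead of Gbp2 (20.3 ± 0.66) and Gbp9 (18.8 ± 0.952). At the low end were Gbp5 (1.83 ± 0.031), Gbp6 (1.66 ± 0.133) and Gbp4 (0.868 ± 0.162). In JMJD3 WT TCM the order was different, and Gbp2 led with 281 ± 8.29 CPM per kilobase, ahead of Igtp with 144 ± 6.34 (SD, n = 3 each).

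**Figure D2:**
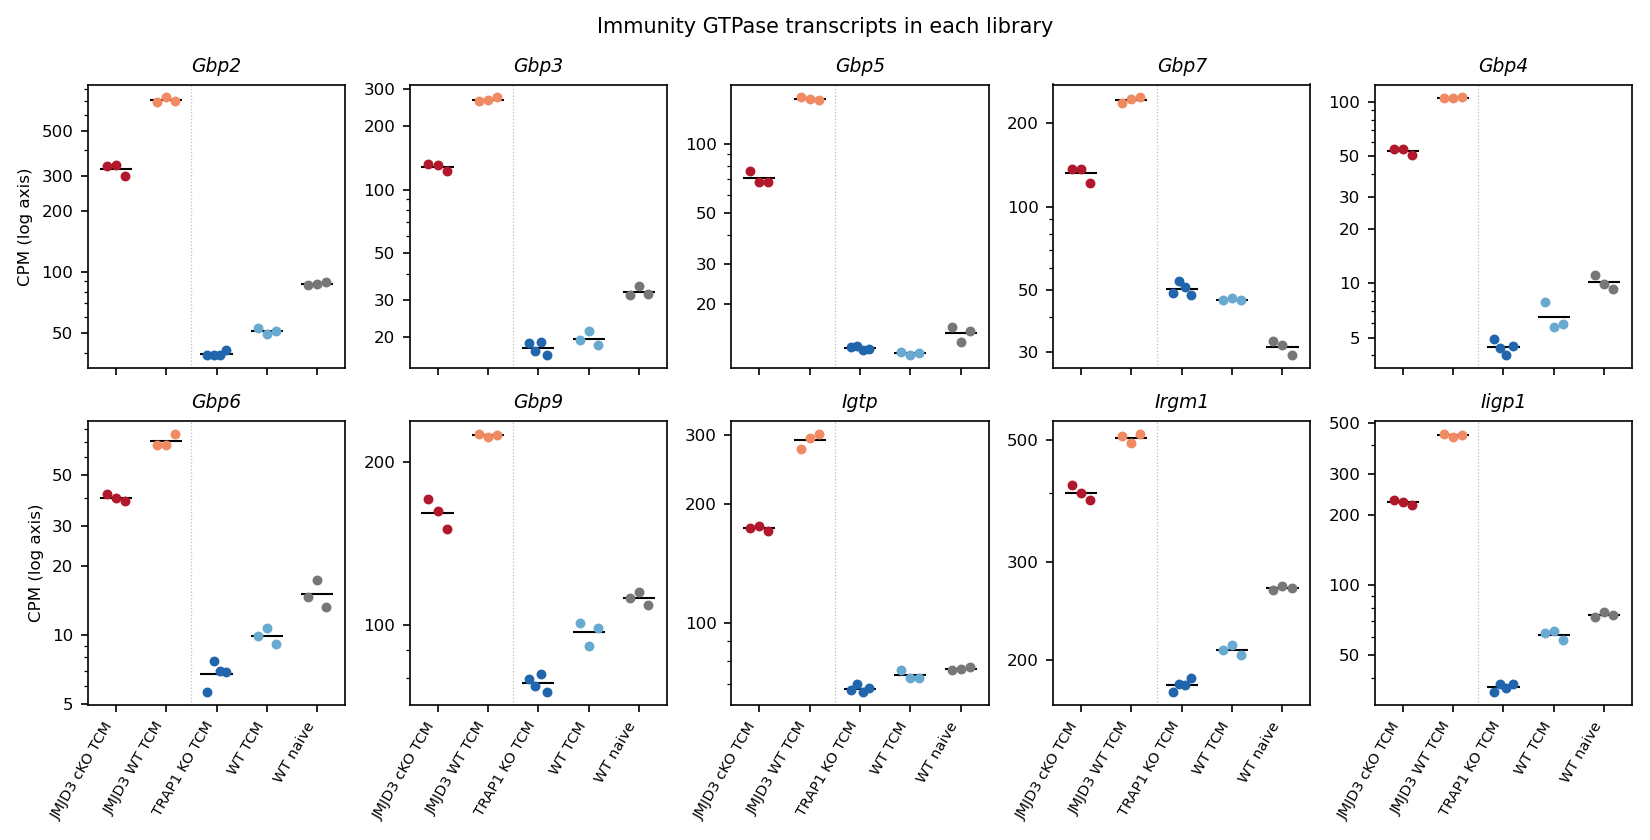
CPM on log axes for each of the 10 genes in each of the 16 libraries. Points are libraries, lines are group means, and the dotted line separates the JMJD3 line from the other cells. For every gene the JMJD3 WT TCM libraries were highest and the libraries labelled JMJD3 cKO TCM next, with no overlap. The share of all genes with this order was not computed.

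The order of the groups was nearly the same for every gene. All 10 were highest in JMJD3 WT TCM and next in the libraries labelled JMJD3 cKO TCM, and both groups were apart from each other and from the rest. Of the other groups, TRAP1 KO TCM was lowest, WT TCM next and WT naive highest for 8 genes. The exceptions were Gbp5, lowest in WT TCM, and Gbp7, lowest in WT naive. Neighbouring groups overlapped for Gbp3 (TRAP1 KO TCM and WT TCM) and for Igtp (WT TCM and WT naive). They overlapped for no other gene of the 10. Across all genes tested, 42.9% had no overlap between TRAP1 KO TCM and WT TCM, and 49.8% between WT TCM and WT naive. For 23.2%, JMJD3 WT TCM stood wholly above the libraries labelled JMJD3 cKO TCM. The share of all genes with the whole order was not computed, so the order cannot be called particular to these genes.

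The first comparison asks what loss of TRAP1 does in macrophages exposed to TCM. In TRAP1 KO TCM against WT TCM, 7 of the 10 genes were lower, Gbp7 was higher, and Gbp3 and Gbp5 did not pass the adjusted p of 0.05 (edgeR's quasi-likelihood test, Benjamini-Hochberg adjustment over 14078 genes). Across all genes tested, 42.2% passed in either direction, 21.0% as lower and 21.2% as higher. The median log2 fold change was -0.25 over the 10 genes and 0.01 over all genes tested. The changes were modest, and the deepest was a fold of 0.597.

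Iigp1, an effector IRG (IRGA6) that loads onto the vacuole of Toxoplasma gondii, had 34.8, 37.6, 36.1 and 37.5 CPM in TRAP1 KO TCM, against 62.5, 63.3 and 58.2 CPM in WT TCM. The groups were far apart, and the log2 fold change was -0.74 (SE 0.04, adjusted p = 4.54e-28). Irgm1, a regulatory IRG needed for resistance to mycobacteria, had 175, 181, 180 and 185 CPM in TRAP1 KO TCM, against 208, 213 and 204 CPM in WT TCM. Its libraries did not overlap either, with a smaller log2 fold change of -0.21 (SE 0.02, adjusted p = 3.68e-12). Igtp, also called IRGM3, a regulator on the endoplasmic reticulum, had 67.3, 69.8, 66.8 and 68.1 CPM in TRAP1 KO TCM, against 76.0, 72.3 and 72.2 CPM in WT TCM. This was the smallest decrease that passed, at -0.11 (SE 0.04, adjusted p = 0.011), and without WT TCM replicate 1 it was -0.09 and no longer passed (adjusted p = 0.109).

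Among the GBPs, the 3 genes of the chromosome 5 cluster were all lower in TRAP1 KO TCM. Gbp6 had 5.66, 7.69, 6.94 and 6.9 CPM in TRAP1 KO TCM, against 9.87, 10.7 and 9.14 CPM in WT TCM (log2 fold change -0.54, SE 0.11, adjusted p = 1.65e-05). Gbp4 had 4.91, 4.35, 3.99 and 4.47 CPM in TRAP1 KO TCM, against 7.9, 5.69 and 5.92 CPM in WT TCM. The highest WT TCM library of Gbp4 stood clear of the other two, and the log2 fold change of -0.56 (SE 0.13, adjusted p = 0.000191) was between -0.65 and -0.39 when single libraries were left out. Gbp9, the most abundant of the 3 per length, averaged 78.4 ± 2.56 CPM in TRAP1 KO TCM and 97.1 ± 4.92 CPM in WT TCM (log2 fold change -0.30, SE 0.03, adjusted p = 8.86e-13).

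The 4 genes of the chromosome 3 cluster went separate ways. Gbp2, a GBP that coats vacuoles and bacteria, had 38.9, 38.8, 39.0 and 41.2 CPM in TRAP1 KO TCM, against 52.7, 49.4 and 51.4 CPM in WT TCM, and fell by 0.37 on the log2 scale (SE 0.04, adjusted p = 4.58e-12). Gbp7, which is known to act with the NADPH oxidase in mouse macrophages, had 48.8, 54.0, 51.2 and 47.9 CPM in TRAP1 KO TCM, against 46.0, 46.8 and 46.0 CPM in WT TCM. It was the one gene of the 10 called higher (log2 fold change 0.13, SE 0.05, adjusted p = 0.0156), and the call was lost without TRAP1 KO TCM replicate 2 (adjusted p = 0.0983), without WT TCM replicate 1 (adjusted p = 0.0553) and with DESeq2 (adjusted p = 0.055).

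Gbp5, which is known for its part in inflammasome assembly, had 12.9, 13.0, 12.6 and 12.7 CPM in TRAP1 KO TCM, against 12.3, 11.9 and 12.2 CPM in WT TCM. Its libraries did not overlap, as for 42.9% of all genes tested, but the log2 fold change of 0.08 (95% interval -0.09 to 0.26, adjusted p = 0.473) did not pass. Gbp3 had 18.8, 17.1, 18.9 and 16.4 CPM in TRAP1 KO TCM, against 19.4, 21.3 and 18.3 CPM in WT TCM, with overlapping groups. Its log2 fold change of -0.14 did not pass with the 10 libraries of this fit (adjusted p = 0.10) and passed when all 16 libraries shared the estimate of spread (adjusted p = 0.0378). Of other cells' markers, 7 fibroblast genes summed to 4.91 to 7.43 CPM in TRAP1 KO TCM and 0.315 to 0.497 CPM in WT TCM, where Col3a1, Dcn and Pdgfra were at 0, and all 3 tested were higher. Markers of plasmacytoid dendritic cells, which are known for making type I interferon, summed to 1.67 to 2.24 CPM in TRAP1 KO TCM and 3.34 to 3.43 CPM in WT TCM, with Klk1 at 0 in both groups and Siglech at 0 in WT TCM, and 1 of 2 tested was lower. Their part in the results was not tested.

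**Figure D3:**
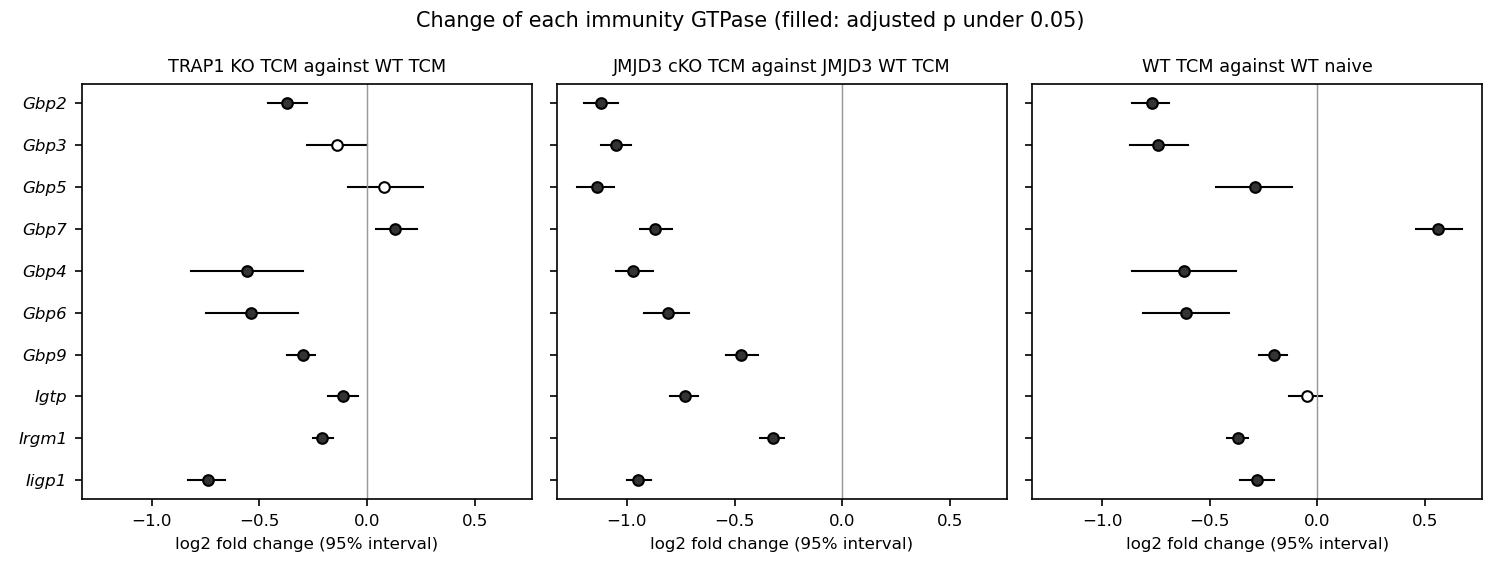
Log2 fold changes with 95% intervals for the 10 genes, in TRAP1 KO TCM against WT TCM (left), in the libraries labelled JMJD3 cKO TCM against JMJD3 WT TCM (middle) and in WT TCM against WT naive (right). Filled points passed an adjusted p of 0.05, and all 10 points of the middle panel lie below 0.

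The second comparison asks what the JMJD3 knockout label goes with in TCM-exposed cells. All 10 genes were lower in the libraries labelled JMJD3 cKO TCM than in JMJD3 WT TCM, and for all 10 the libraries did not overlap. Across the 13476 genes tested, 35.1% passed in either direction and 17.8% as lower, and 23.2% had non-overlapping groups with the knockout label lower. The median log2 fold change was -0.91 over the 10 genes and 0.01 over all genes tested. A fall of at least 1.5-fold that passed was seen for 3.55% of all genes, and for 8 of these 10, the exceptions being Gbp9 and Irgm1.

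Gbp5 had 76.1, 68.0 and 68.4 CPM in the libraries labelled JMJD3 cKO TCM, against 160, 157 and 156 CPM in JMJD3 WT TCM, the largest fall of the 10 (log2 fold change -1.14, SE 0.04, adjusted p = 7.26e-26). Gbp2 had 334, 337 and 298 CPM in the libraries labelled JMJD3 cKO TCM, against 689, 730 and 702 CPM in JMJD3 WT TCM (log2 fold change -1.12, SE 0.04, adjusted p = 4.48e-16). Gbp3 had 132, 131 and 122 CPM in the libraries labelled JMJD3 cKO TCM, against 264, 265 and 274 CPM in JMJD3 WT TCM (log2 fold change -1.05, SE 0.03, adjusted p = 1.68e-27). As folds, these 3 genes of the chromosome 3 cluster were at 0.452 (Gbp5), 0.46 (Gbp2) and 0.483 (Gbp3) of the JMJD3 WT TCM level. Gbp7, the other gene of that cluster, had 137, 137 and 122 CPM in the libraries labelled JMJD3 cKO TCM, against 236, 244 and 247 CPM in JMJD3 WT TCM (log2 fold change -0.87, SE 0.04, adjusted p = 4.58e-23).

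On chromosome 5 the falls were uneven. Gbp4 averaged 53.5 ± 2.23 CPM in the libraries labelled JMJD3 cKO TCM and 105 ± 0.596 CPM in JMJD3 WT TCM (log2 fold change -0.97, SE 0.04, adjusted p = 1.95e-22). Gbp6 had 41.3, 39.9 and 38.7 CPM in the libraries labelled JMJD3 cKO TCM, against 68.1, 68.1 and 76.0 CPM in JMJD3 WT TCM (log2 fold change -0.81, SE 0.05, adjusted p = 4.26e-17). Gbp9 had 171, 162 and 150 CPM in the libraries labelled JMJD3 cKO TCM, against 225, 222 and 224 CPM in JMJD3 WT TCM. Its log2 fold change of -0.47 (SE 0.04, adjusted p = 1.19e-14) was the smallest among the GBPs of the 10.

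The effector Iigp1 had 232, 229 and 221 CPM in the libraries labelled JMJD3 cKO TCM, against 449, 434 and 442 CPM in JMJD3 WT TCM (log2 fold change -0.95, SE 0.03, adjusted p = 2.45e-28). Of the regulators, Igtp had 174, 176 and 171 CPM in the libraries labelled JMJD3 cKO TCM, against 277, 294 and 302 CPM in JMJD3 WT TCM (log2 fold change -0.73, SE 0.03, adjusted p = 1.81e-22). Irgm1 had 415, 400 and 389 CPM in the libraries labelled JMJD3 cKO TCM, against 509, 493 and 513 CPM in JMJD3 WT TCM, with the smallest log2 fold change of the 10, -0.32 (SE 0.03, adjusted p = 5.4e-13).

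Markers of other cells moved with this comparison. The summed level of 8 neutrophil markers was 38.6 to 40.6 CPM in the libraries labelled JMJD3 cKO TCM and 21.1 to 25 CPM in JMJD3 WT TCM, where Ly6g was at 0, and 4 of the 5 tested were higher. That of 12 T cell and NK cell markers was 4.17 to 5.83 CPM in the libraries labelled JMJD3 cKO TCM and 1.85 to 2.23 CPM in JMJD3 WT TCM, where Klrb1c was at 0. The macrophage markers summed to 12700 to 13200 CPM in the libraries labelled JMJD3 cKO TCM and 16000 to 16500 CPM in JMJD3 WT TCM, with 3 of 8 higher and 5 lower. Their part in the result was not tested, and in bulk RNA fewer expressing cells and less RNA per cell cannot be told apart.

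The knockout effects were compared directly, as the TRAP1 effect minus the JMJD3 effect in 1 fit of all libraries, in which 37.9% of 14545 genes passed in either direction and 18.4% as positive. The difference was positive for all 10 genes and passed for 9, where positive means that the TRAP1 value lay above the JMJD3 value. It was 1.22 on the log2 scale for Gbp5 (SE 0.08, adjusted p = 3.53e-23), 1 for Gbp7 (SE 0.06, adjusted p = 1.23e-26), 0.90 for Gbp3, 0.75 for Gbp2 and 0.62 for Igtp. For Gbp4 (0.40), Iigp1 (0.20), Gbp9 (0.16) and Irgm1 (0.11) it was smaller but passed. Leaving out a library ended the call of Gbp4 (adjusted p = 0.0665 without WT TCM replicate 2), of Gbp9 (0.0858 without WT TCM replicate 2 and 0.0832 without JMJD3 cKO TCM replicate 3) and of Irgm1 (0.0538 without JMJD3 cKO TCM replicate 3). The difference for Gbp6 was 0.27 and did not pass (adjusted p = 0.0516). The 4 chromosome 3 genes had the 4 largest of these values, from 0.75 to 1.22. Each knockout was set against its own wild type, and the lines differ in sex, so the knockout and the line cannot be told apart here.

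**Figure D4:**
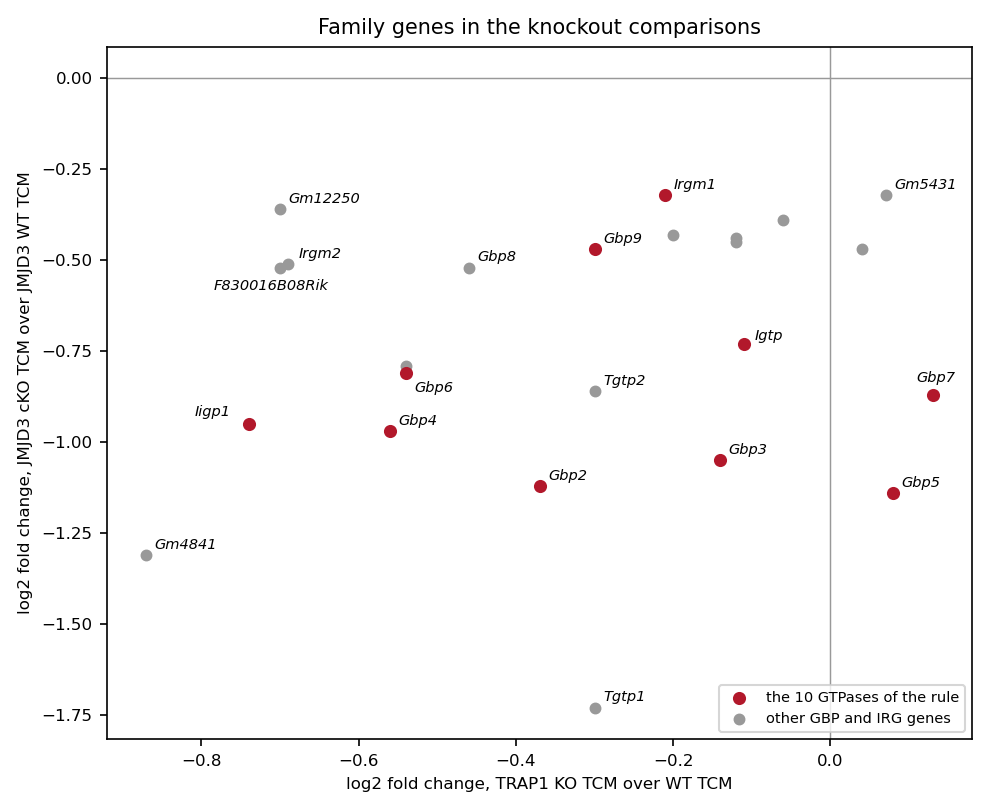
Log2 fold change in TRAP1 KO TCM over WT TCM (x axis) and in the libraries labelled JMJD3 cKO TCM over JMJD3 WT TCM (y axis) for the 10 genes (red) and the other GBP and IRG genes tested in both (grey). Every point lies below 0 on the y axis. On the x axis Gm4841 (-0.87, which did not pass) lies furthest left, followed by Iigp1, Gm12250, F830016B08Rik and Irgm2. Gbp7, Gbp5, Gm5431 and Gvin1 lie right of 0 on that axis.

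The third comparison asks what TCM does in wild-type cells. In WT TCM against WT naive, 8 of the 10 genes were lower, Gbp7 was higher and Igtp did not pass, where 42.2% of 14078 genes passed in either direction, 20.6% as lower and 21.6% as higher. The median log2 fold change was -0.33 over the 10 genes and -0.01 over all genes tested. WT TCM is also the control of the TRAP1 comparison, so both comparisons share those 3 libraries and their values are given side by side.

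Gbp2 had 52.7, 49.4 and 51.4 CPM in WT TCM, against 86.2, 87.5 and 89.2 CPM in WT naive (log2 fold change -0.77 with SE 0.04 and adjusted p = 8.88e-31, beside -0.37 for TRAP1 loss). Gbp3 had 19.4, 21.3 and 18.3 CPM in WT TCM, against 31.7, 34.8 and 31.9 CPM in WT naive (log2 fold change -0.74 with SE 0.07 and adjusted p = 3.36e-16, beside -0.14). Irgm1 had 208, 213 and 204 CPM in WT TCM, against 267, 272 and 270 CPM in WT naive (log2 fold change -0.37 with SE 0.02 and adjusted p = 2.08e-24, beside -0.21). In all 3 genes the libraries of the groups did not overlap, as in 49.8% of all genes tested. Gbp4 (-0.62), Gbp6 (-0.61), Gbp5 (-0.29), Iigp1 (-0.28) and Gbp9 (-0.20) were also lower.

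Gbp7 had 46.0, 46.8 and 46.0 CPM in WT TCM, against 32.9, 31.7 and 29.2 CPM in WT naive, so that it rose (0.56 on the log2 scale, SE 0.05, adjusted p = 1.7e-16) while its neighbours on either side, Gbp5 and Gbp3, fell. Igtp had 76.0, 72.3 and 72.2 CPM in WT TCM, against 75.7, 76.4 and 77.0 CPM in WT naive, and the groups overlapped (log2 fold change -0.05, 95% interval -0.13 to 0.02, adjusted p = 0.26). Neutrophil markers summed to 4.1 to 5.47 CPM in WT TCM and 50 to 53.7 CPM in WT naive, all 6 tested being lower, and the fibroblast markers summed to 0.315 to 0.497 CPM in WT TCM and 13.7 to 14.8 CPM in WT naive, all 3 tested being lower. T cell and NK cell markers summed to 0.126 to 0.354 CPM in WT TCM, where 6 of 12 had no counts, and 1.78 to 2 CPM in WT naive. Markers of plasmacytoid dendritic cells summed to 3.34 to 3.43 CPM in WT TCM and 4.46 to 6.08 CPM in WT naive, with 1 of 2 tested lower. Macrophage markers summed to 26200 to 26900 CPM in WT TCM and 15900 to 16000 CPM in WT naive, with 5 higher and 3 lower. Their part in the results was not tested.

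The wild types of the 2 lines were also set side by side. In JMJD3 WT TCM against WT TCM all 10 genes were higher, where 61.3% of genes passed in either direction and 30.0% as higher. The median log2 fold change was 2.84 over the 10 genes and 0 over all genes. The range ran from 1.21 for Gbp9 (fold 2.31) to 4 for Gbp4 (fold 16). Increases of at least 4-fold that passed were seen for 2.76% of all genes, and for 7 of these 10. Being higher in JMJD3 WT TCM was not particular to the 10 genes. All 17 other family genes tested were higher too, with a median log2 fold change of 1.68. So were all 20 type I interferon targets tested (median 2.31) and all 12 interferon-gamma targets tested (median 1.57).

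Gbp4, Gbp2 (fold 13.8), Gbp3 (13.6) and Gbp5 (13) differed most, Iigp1 (7.2), Gbp6 (7.13) and Gbp7 (5.24) followed, and Igtp (3.96), Irgm1 (2.43) and Gbp9 differed least. The libraries labelled JMJD3 cKO TCM also stood above WT TCM, at 70.8 ± 4.57 CPM for Gbp5, for example, against 12.1 ± 0.206 CPM in WT TCM. Markers of other cells differed too. Neutrophil markers summed to 21.1 to 25 CPM in JMJD3 WT TCM and 4.1 to 5.47 CPM in WT TCM, with Ly6g at 0 in both groups and all 6 tested higher. T cell and NK cell markers summed to 1.85 to 2.23 CPM in JMJD3 WT TCM and 0.126 to 0.354 CPM in WT TCM, and 1 of 2 tested was higher. Markers of plasmacytoid dendritic cells summed to 6.5 to 7.32 CPM in JMJD3 WT TCM and 3.34 to 3.43 CPM in WT TCM. Siglech and Klk1 were at 0 in WT TCM, and both genes tested were higher in JMJD3 WT TCM. B cell markers summed to 7.19 to 7.8 CPM in JMJD3 WT TCM and 2.52 to 5.11 CPM in WT TCM, with both tested higher. Macrophage markers summed to 16000 to 16500 CPM in JMJD3 WT TCM and 26200 to 26900 CPM in WT TCM, with 3 higher and 5 lower. Their part in the result was not tested. Line, sex and any difference in how the sets were grown cannot be told apart in this comparison.

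The rest of the family gave a broader view. Of the 18 other GBP and IRG genes, 14 passed the low-count filter in the TRAP1 comparison, where 21.0% of all genes were lower and 21.2% higher. By edgeR, 8 of these 14 were lower and 0 higher in TRAP1 KO TCM, with 0 higher by DESeq2 too. The others had values from -0.87 to 0.07 that did not pass, the lowest being Gm4841 with 22 counts over the TRAP1 KO TCM libraries (SE 0.50, adjusted p = 0.157), which passed without TRAP1 KO TCM replicate 1 (-1.46, adjusted p = 0.0307). At an unadjusted p under 0.05, 1 gene was higher, Gm5431 (log2 fold change 0.07, adjusted p = 0.0556), which passed in 4 alternatives, such as the filter at a mean of 50 counts (adjusted p = 0.022), and not with DESeq2 (adjusted p = 0.141).

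The deepest called falls were in IRG genes. Gm12250, which encodes IRGB10, an IRG that acts on bacterial membranes, averaged 33.0 ± 0.456 CPM in TRAP1 KO TCM and 54.0 ± 0.637 CPM in WT TCM (log2 fold change -0.70, SE 0.05, adjusted p = 5.73e-25). Irgm2, the third regulatory IRGM, averaged 75.5 ± 3.08 CPM in TRAP1 KO TCM and 122 ± 1.46 CPM in WT TCM (log2 fold change -0.69, SE 0.03, adjusted p = 2.38e-34). F830016B08Rik (-0.70) and Gm4951 (-0.54), both in the chromosome 18 cluster of Iigp1, fell as well. Gbp8 (-0.46), Tgtp2 (-0.30), 9930111J21Rik1 (-0.20) and Ifi47 (-0.12), which encodes IRGD, complete the 8, and the call of Gbp8 was lost without WT TCM replicate 1 (-0.37, adjusted p = 0.0612).

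Igtp and Irgm2 make a close pair with different values. They are neighbours on chromosome 11, 162 bases of their exons overlap on the same strand (8.01% of Igtp), and their composite stretches printed above are alike. Yet the log2 fold change with TRAP1 loss was -0.11 for Igtp and -0.69 for Irgm2, and with the JMJD3 knockout label it was -0.73 for Igtp and -0.51 for Irgm2. The difference between the knockout effects was 0.62 for Igtp and -0.18 for Irgm2 (SE 0.04, adjusted p = 0.000387), with opposite signs that both passed.

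In the libraries labelled JMJD3 cKO TCM, all 17 other family genes that were tested were lower than in JMJD3 WT TCM, against 17.8% of all genes, with a median log2 fold change of -0.52. Tgtp1, one of a near-identical pair that encodes the effector IRGB6, fell most, with 16.2 ± 1.47 CPM in the libraries labelled JMJD3 cKO TCM and 54.1 ± 2.67 CPM in JMJD3 WT TCM (log2 fold change -1.73, SE 0.07, adjusted p = 1.46e-24). Its partner Tgtp2 fell by 0.86 on the log2 scale. Gbp11 had overlapping groups, and its call (adjusted p = 0.0147) was lost without JMJD3 WT TCM replicate 3 (-0.52, adjusted p = 0.168) and without JMJD3 cKO TCM replicates 2 (0.0796) or 3 (0.0899). Gbp10 (-1.43), Gm4841 (-1.31), Gbp2b (-0.91) and Gbp11 (-0.89) were low, at 0.924 to 3.4 CPM on average in the libraries labelled JMJD3 cKO TCM. The smallest falls were those of Gm5431 (-0.32) and Gm12250 (-0.36), and the rest, Gm4951 (-0.79), Gbp8, F830016B08Rik, Irgm2, Gvin1, Gm4070, Ifi47, 9930111J21Rik1 and 9930111J21Rik2, lay from -0.79 to -0.39. Irgc1 had at most 13 counts per group and was not tested.

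With TCM in wild-type cells 6 of 14 other family genes tested were lower and 2 higher in WT TCM than in WT naive, where 20.6% of all genes were lower and 21.6% higher. Gbp8 (0.52) and Ifi47 (0.18) were the higher ones, and Tgtp1 (-0.58) and F830016B08Rik (-0.52) fell most. The groups overlapped for Tgtp1 (adjusted p = 0.0262), whose call was lost with DESeq2 (0.078), without WT naive replicate 1 (-0.32, adjusted p = 0.332), without WT TCM replicate 1 (0.0715) and without WT TCM replicate 3 (0.107). That of 9930111J21Rik2 (-0.08, adjusted p = 0.0435) was lost in 9 alternatives, with adjusted p up to 0.132 without WT TCM replicate 1. Conversely Gm4070 (-0.18, adjusted p = 0.344) passed without WT TCM replicate 1, at -0.35. Gm12250 (0.00), Tgtp2 (-0.02) and Gm5431 (-0.03) did not pass, nor did Igtp among the 10.

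Upstream of the GTPases, Ifng itself had 0 to 3 counts per group, too few to test, and Ifnb1 had 30 counts over the libraries labelled JMJD3 cKO TCM and 121 over those of JMJD3 WT TCM (log2 fold change -2.37, SE 0.31, adjusted p = 3.7e-08). In the other groups Ifnb1 had 0 counts in TRAP1 KO TCM, 2 in WT TCM and 13 in WT naive. Of 10 tested genes of interferon-gamma signalling, 5 were higher and 1 lower in TRAP1 KO TCM than in WT TCM. Of all genes tested, 21.2% were higher and 21.0% lower. The receptor chains Ifngr1 (0.26) and Ifngr2 (0.16), the kinase Jak1 (0.20) and the feedback inhibitor Socs3 (0.70) were higher, and the feedback inhibitor Socs1 (-0.72) was lower. Irf1 averaged 80.8 ± 2.44 CPM in TRAP1 KO TCM and 78.7 ± 3.71 CPM in WT TCM (log2 fold change 0.04, adjusted p = 0.354).

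Of the same 10 genes, 6 were lower and 1, Ifngr1 (0.24), was higher in the libraries labelled JMJD3 cKO TCM. Of all genes tested, 35.1% passed in either direction and 17.8% as lower. Irf1 averaged 159 ± 3.64 CPM in the libraries labelled JMJD3 cKO TCM and 235 ± 6.33 CPM in JMJD3 WT TCM (log2 fold change -0.55, SE 0.03, adjusted p = 3.03e-18). Socs3 fell by 0.95 on the log2 scale. Irf1 was also higher in JMJD3 WT TCM than in WT TCM, by 1.58 on the log2 scale.

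Of 20 type I interferon targets, 16 were lower and 2 higher in TRAP1 KO TCM than in WT TCM, with a median log2 fold change of -0.35. Of all genes tested, 21.0% were lower and 21.2% higher. The lower targets included the antiviral genes Rsad2 (-0.77), Cmpk2 (-0.73), Oas3 (-0.48) and Oasl2 (-0.38). All 20 targets were lower in the libraries labelled JMJD3 cKO TCM than in JMJD3 WT TCM, with a median of -0.58, against 17.8% of all genes. With TCM, 18 were lower and 1 higher in WT TCM than in WT naive, with a median of -0.44. Of all genes, 20.6% were lower and 21.6% higher with TCM. Of the type I signalling genes tested, 5 of 9 were lower and 1 higher in TRAP1 KO TCM, including Stat2 (-0.29), Isg15 (-0.41) and Usp18 (-0.30), and 6 of 10 were lower in the libraries labelled JMJD3 cKO TCM.

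Interferon-gamma targets were mixed with TRAP1 loss, with 6 of 12 tested lower and 2 higher, where 21.0% of all genes were lower and 21.2% higher. The chemokine Cxcl9 (-1.12), the class I regulator Nlrc5 (-0.52) and the immunoproteasome subunit Psmb9 (-0.22) were lower, and Cd74, the invariant chain of class II molecules, was higher (0.86). In the libraries labelled JMJD3 cKO TCM 11 of the 12 were lower, against 17.8% of all genes, and Cd74 (0.04, adjusted p = 0.345) was the exception.

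Genes that act beside the GTPases were read against the shares of all genes that passed in either direction, 42.2% with TRAP1 loss and 35.1% with the JMJD3 knockout label. Of 13 genes of the LC3 conjugation and ubiquitin machinery that loads GTPases onto vacuoles, 3 were lower, including Atg3 (-0.24) and Sqstm1 (-0.08), and 4 higher in TRAP1 KO TCM than in WT TCM, and 6 were lower in the libraries labelled JMJD3 cKO TCM than in JMJD3 WT TCM while the others did not pass. Of 9 genes of the inflammasome pathways, Aim2 (-0.30) and Casp1 (-0.23) were lower and Il1b (0.83) higher in TRAP1 KO TCM, and 7 were lower and Nlrp3 (0.24) higher in the libraries labelled JMJD3 cKO TCM. Casp4, which encodes caspase-11, averaged 77.2 ± 7.46 CPM in the libraries labelled JMJD3 cKO TCM and 131 ± 2.53 CPM in JMJD3 WT TCM (log2 fold change -0.75, SE 0.05, adjusted p = 2.11e-14). Of 6 genes of prenylation, which attaches some GBPs to membranes, 2 were higher and 1 lower with TRAP1 loss and 1 higher with the JMJD3 knockout label.

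Genes outside the family with a mean of at least 5 CPM were ranked by how closely their levels ran with the mean of the 10. Symbols of the form Gm and a number, or with Rik, were left out, and 9395 genes were ranked. Over the 16 libraries the closest were Phf11b (Pearson's r = 0.999), Samhd1 (0.999), P2rx4 (0.998), Ifit2 (0.998) and Nt5c3 (0.998). The lines form separate clusters of libraries, so r is also given within each. Within the 10 libraries of the TRAP1 and TCM comparisons r was 0.989, 0.98, 0.98, 0.994 and 0.959 in the same order, and within the 6 of the JMJD3 line 0.998, 0.993, 0.998, 0.999 and 0.995. Ifit2 averaged 2130 CPM in the libraries labelled JMJD3 cKO TCM, 4030 in JMJD3 WT TCM, 299 in TRAP1 KO TCM, 405 in WT TCM and 573 in WT naive.

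Some counts are less certain because genes share exons or near-identical sequence. Gbp6 shares 29% of its exon length with Gm43302, which reached at most 0.319 CPM, and Gbp7 shares 11.3% with Gm43802, which had 0 counts. Gbp4, Gbp8 and Gbp9 share 60 or 61 bases. How reads that fit Gbp6 and Gbp10, Gbp2 and Gbp2b, or Tgtp1 and Tgtp2 were assigned is not stated.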

How the data were processed

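The authors deposited 1 table of gene counts per library, whole numbers used as raw counts. HISAT, Bowtie2, StringTie and RSEM and the build mm10 appear, with no roles, in the submitters' processing notes. Per the labels' protocols, libraries were rRNA-depleted and stranded; the sources used here give no counting tool, annotation or strand setting. GENCODE M21 gave symbols for 54495 of 54532 identifiers. Counts were tested with edgeR (4.0.16, R 4.3.3) with TMM scaling, filterByExpr (minimum count 10), the quasi-likelihood test in its robust form, and p-values adjusted by Benjamini-Hochberg over all genes tested. The threshold for a call was an adjusted p of 0.05. The TRAP1 and TCM comparisons came from 1 fit of 10 libraries (7 residual degrees of freedom), the JMJD3 comparison from its 6 libraries (4), and the difference of effects and the comparison of wild types from all 16 (11). The scripts were tested on simulated data.

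CPM are mean ± SD on TMM totals of all 16 libraries. Per-kilobase levels divide by the union of exons. The similarity of patterns used log2 CPM with a pseudocount of 1. Promoter sequences are RefSeq's, GRCm38.p6. The members and gene lists were chosen with earlier results of these data known, and 1 gene of the interferon-gamma signalling list is not reported here. The genes named were all members and family genes, the targeted genes, at most 4 of each other list with the smallest adjusted p in the TRAP1 comparison, Ifng, Ifngr1, Ifngr2 and Irf1, and the 5 most similar genes. Ifnb1, Socs1, Nlrp3, Xist, Ddx3y and the overlapping Gm43302 and Gm43802 were named after their values were seen. Replicate libraries of a group differed by more than sampling noise (chi-square per gene 1.74 to 2.72), so none was counted as the same library sequenced again. This check cannot tell separate animals from separate cultures or preparations of the same animal. Alternatives were DESeq2 (1.42.0), RLE size factors, no filter or a mean of at least 50 counts, a replicate block, other sets of libraries in the fit, and leaving out each library.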

Additional observations from a re-analysis of the deposited data

Results flagged for a closer look

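In TRAP1 KO TCM, Gbp2 in replicate 4 had 41.2 CPM, apart from the 38.8 to 39 CPM of the other 3 libraries. Gm4070 had 28.6 CPM in replicate 1, below the 33.8 to 34.8 CPM of the others. Chance sets about 1 in 20 groups apart in this way, and the list looked at held 52 genes, of which those with few counts were skipped.

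The effects of the knockouts, each against its own wild type, differed by the test of the difference itself for 9 of the 10 genes (TRAP1 effect minus JMJD3 effect, log2, edgeR). Of all genes tested, 37.9% passed in either direction and 18.4% as positive. The lines differ in sex, so the knockout and the line cannot be told apart. The differences were 1.22 for Gbp5 (adjusted p = 3.53e-23), 1 for Gbp7 (1.23e-26), 0.9 for Gbp3 (1.29e-20), 0.75 for Gbp2 (2.32e-17), 0.62 for Igtp (5.33e-21), 0.4 for Gbp4 (0.00587), 0.2 for Iigp1 (0.00039), 0.16 for Gbp9 (0.00669) and 0.11 for Irgm1 (0.00726).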

How the results depend on the processing

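In the JMJD3, TCM and wild-type comparisons, no call or direction of the 10 genes changed under any of 12 alternatives each. With TRAP1 loss, the count called lower was 6 to 8. The count called higher was 0 with DESeq2 and 0 to 1 when a library was left out. Over all genes, the alternatives called 2571 to 3013 lower and 2486 to 2942 higher. The differences between the knockout effects that were called positive numbered 7 to 10, beside 2457 to 2776 over all genes. Without WT TCM replicate 2 the difference was 0.30 for Gbp4 (adjusted p = 0.0665) and 0.11 for Gbp9 (0.0858), without JMJD3 cKO TCM replicate 3 it was 0.11 for Gbp9 (0.0832) and 0.09 for Irgm1 (0.0538), and that of Gbp6 passed in 8 alternatives, for example at 0.0439 with RLE size factors. The cause was not tested. Reversed signs were seen for uncalled values near 0. With libraries left out, values ran from -0.23 to 0.05 for Gm4070 with TRAP1 loss, from -0.02 to 0.08 for Kdm6b with the JMJD3 knockout label, and, with TCM, from -0.06 to 0.01 for Tgtp2, from -0.01 to 0.02 for Gm12250, from -0.06 to 0 for Gm5431, from -0.05 to 0.06 for Trap1 and from -0.01 to 0.05 for Irf1. With RLE size factors or DESeq2, Gm12250 with TCM was 0.

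Replicate numbers were shared between groups, but same-numbered libraries did not deviate together (r from -0.028 to 0.02). A replicate block was also fitted, which left out TRAP1 KO TCM replicate 4. With TRAP1 loss it called 1 of the 10 genes higher and 7 lower, beside 2778 higher and 2784 lower over all genes. With the JMJD3 label it called 10 lower, beside 2246 higher and 2333 lower over all genes. With TCM it called 1 higher and 8 lower, beside 3042 higher and 2886 lower over all genes. It called 9 differences positive, beside 2554 positive and 2780 negative over all genes. Without the block, 21.0% of all genes were lower with TRAP1 loss, 17.8% with the JMJD3 label and 20.6% with TCM. Depth limits Gbp4 and Gbp6, with 346 and 534 counts over the TRAP1 KO TCM libraries.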
